A study of Caenorhabditis elegans with 6 samples.

Results

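The mitochondrial ribosomal proteins of C. elegans are the proteins of the ribosome that works inside the mitochondrion. They were taken here as every gene whose symbol begins with mrps or mrpl followed by a number and that had at least 1 read, which gave 71 of the 46936 genes in the table, 29 of the small subunit (mrps) and 42 of the large subunit (mrpl). The table held 26609 genes with at least 1 read, and the RNA-seq libraries came from whole animals, in 3 biological replicates of a MProPow2 group and 3 of a control group. MProPow2 is a batch of a protein powder that contains milk fat globule membrane, given at 1 mg/mL in a solution spread over the agar, and control plates received water. All animals were of the wild-type N2 strain, raised at 20 °C on E. coli OP50 and placed on the plates as L1 larvae. In both groups they were moved at the L4 stage to plates with 10 µM 5-FU, a drug that stops the production of progeny, and collected on day 2 of adulthood, so both groups were exposed to 5-FU. Poly-A RNA was sequenced, and because RNA came from whole animals, fewer cells of a type and less RNA per cell cannot be told apart.

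The mitochondrial genome of the worm encodes a small set of proteins, all of them subunits of the respiratory chain and of ATP synthase, and the mitochondrial ribosome makes these proteins. Its ribosomal RNAs are transcribed from mitochondrial DNA, while all its proteins are encoded in the nucleus, made in the cytosol and imported. Some of them descend from proteins of the bacterial ribosome, and others joined the ribosome later in mitochondrial evolution. In worms, lowering the expression of mrps-5 is known to lengthen lifespan and to switch on the mitochondrial unfolded protein response, a program of chaperones and proteases under the transcription factor ATFS-1. The comparison of MProPow2 with control asks how this gene group and the genes that work with it stood in animals on the powder.

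Depth was similar in the groups, with 28859395 to 37501098 counts in control libraries and 29347851 to 32145772 in MProPow2 libraries. Counts differed between any pair of replicates beyond sampling noise, so each library counted as 1 replicate. Muscle markers were lower in MProPow2 in 7 of 8 genes. Of these, 4 were past the adjusted threshold of edgeR, where 3.01% of all genes tested were in either direction. The summed level of the muscle markers was 1059 to 1149 CPM (counts scaled to 1000000 per library) in control and 796 to 889 CPM in MProPow2. Of 8 intestine markers listed, 7 were found by symbol. These were lower in 7 of 7 genes, 0 of them past the adjusted threshold. At an unadjusted p under 0.05 by edgeR there were 5 (71.4%), where 7.75% of all genes tested were lower. The sums of the intestine markers were 1186 to 1214 CPM in control and 852 to 1132 CPM in MProPow2. The germline, oocyte and neuron markers overlapped between the groups in their sums or had medians near 0 (log2 fold changes of -0.028, -0.099 and -0.012), and sperm markers were close to absent, with sums of 1.07 to 1.77 in control and 0.734 to 3.86 in MProPow2. None of the marker genes other than those of sperm was at 0 in any library. What the marker levels contribute to the levels of the mitochondrial ribosomal proteins was not tested.

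All 71 genes were expressed in every library, at 496 to 3801 counts each, and all 71 passed the filter on low counts. Together they made up 0.333% to 0.369% of a control library and 0.342% to 0.361% of a MProPow2 library. In FPKM (fragments per kilobase, scaled for library depth), a level that allows for gene length, their median over the 6 libraries was 58.0, against 9.35 for all 14534 genes tested, and 71 of the 71 lay above that median. The lower and upper quartiles were 40.9 and 75.3 FPKM, and the highest gene mean was 8.16 times the lowest. The same ratio was 169 in the cytosolic ribosomal proteins, from 25.5 to 4317 FPKM, and 114 in the nuclear-encoded subunits of the respiratory chain, from 6.19 to 705 FPKM. That ratio rests on the 2 genes at the ends of each list. The quartiles were 1364 and 2321 FPKM in the cytosolic ribosomal proteins and 78.1 and 270.6 FPKM in the respiratory chain. Small subunit genes had a median of 60.2 FPKM and large subunit genes 54.7 FPKM.

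**Figure D1:**
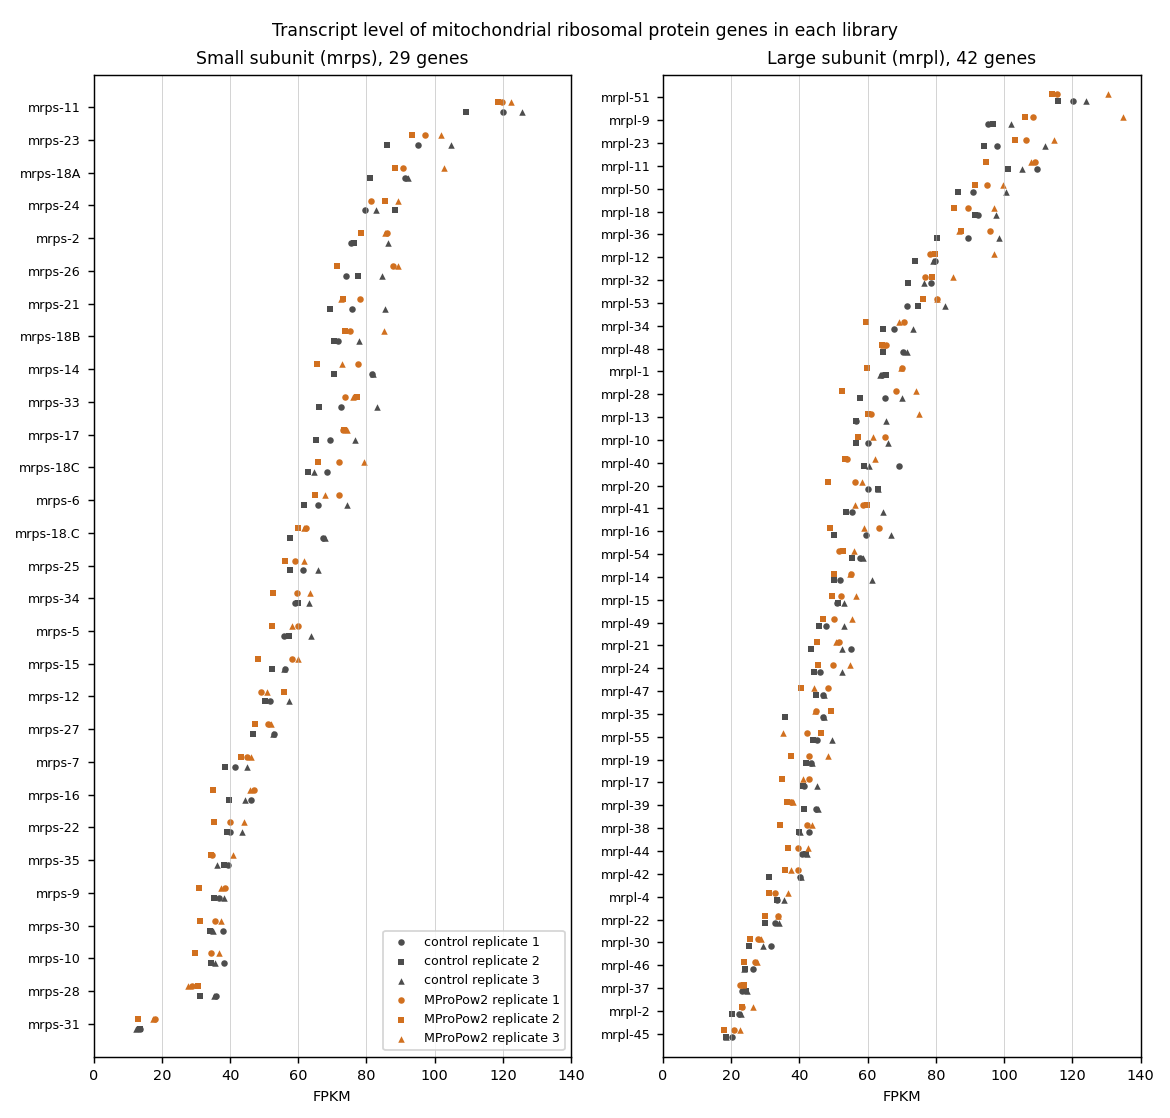
Level of each of the 71 genes in FPKM (horizontal axis) in 3 control libraries (grey) and 3 MProPow2 libraries (orange), with the small subunit on the left and the large subunit on the right and genes ordered by mean level. Gene means run from 14.7 FPKM for mrps-31 to 120.1 FPKM for mrpl-51, and the grey and orange points of most genes are intermingled.

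At the top of the order stood mrpl-51, a large subunit protein with no counterpart in bacteria, at 120.3, 115.8 and 123.9 FPKM in control libraries 1, 2 and 3 and 115.6, 114.1 and 130.6 FPKM in MProPow2 libraries 1, 2 and 3. Next was mrps-11, the homolog of bacterial S11 on the platform of the small subunit, at 119.96, 109.3 and 125.7 FPKM in control and 119.7, 118.4 and 122.4 FPKM in MProPow2. For both genes the groups overlapped, and mrpl-51 could not be placed above mrps-11. They were followed by mrpl-9 (mean 107 FPKM), mrpl-23 (104.7 FPKM), whose bacterial homolog lies at the exit of the peptide tunnel, and mrpl-11 (104.6 FPKM), whose bacterial homolog belongs to the site where translation factors bind. The ranges of 3 other genes overlapped that of mrpl-51.

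The lowest level was that of mrps-31, a small subunit protein with no bacterial counterpart, at 13.7, 13.7 and 12.4 FPKM in control and 18, 13 and 17.4 FPKM in MProPow2. Only MProPow2 libraries 1 and 3 stood above the control range. Above it came mrpl-45 (mean 19.7 FPKM), a protein that in mammals helps to hold the ribosome at the inner membrane, then mrpl-2 (23.1 FPKM), whose bacterial homolog L2 lies near the site of peptide bond formation, mrpl-37 (23.6 FPKM) and mrpl-46 (25.5 FPKM). The range of 1 other gene overlapped that of mrps-31. Along the whole order, all 70 pairs of neighbours had overlapping ranges over the 6 libraries. These ranges pool both groups and do not compare neighbours within a library. In each of the 6 libraries mrps-31 lay below mrpl-45, which measured 20.3, 18.4 and 18.4 FPKM in control and 20.8, 17.8 and 22.5 FPKM in MProPow2. The control ranges of mrps-31 and mrpl-45 did not overlap. Other pairs were not compared within libraries.

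The order of levels was nearly the same in both groups, with a Spearman correlation across the 71 genes of 0.990 between group means, which describes these libraries, since genes are not independent replicates and share each library. The ratio of the highest to the lowest library was smallest in mrpl-37, at 1.09, and largest in mrps-31, at 1.45, with a median of 1.22. Within a group, the coefficient of variation of a gene over 3 replicates had a median of 6.74%, against 11.8% for all genes tested, which had a lower median level (13 against 45.5 CPM). Longer coding sequences went with lower FPKM (Spearman rho -0.374 across the 71 genes, as a description). FPKM itself divides by gene length, so this correlation cannot separate a lower level from that division. Coding length ran from 231 to 1569 bases with a median of 597, and the genes had 1 to 9 exons with a median of 4.

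As a group, the mitochondrial ribosomal proteins had the same summed level in animals on MProPow2 as in control animals, within the spread of the replicates. Their summed level was 3513, 3333 and 3689.5 CPM (with library sizes scaled by the TMM method) in control libraries 1, 2 and 3, and 3522, 3339.9 and 3702 CPM in MProPow2 libraries 1, 2 and 3. The means were 3512 ± 178 CPM and 3521 ± 181 CPM (SD, n = 3 each), so the MProPow2 mean was 100.3% of the control mean. The libraries of the groups were interleaved. The range within either group was far wider than the difference between the means.

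No gene of the group was called. By the quasi-likelihood test of edgeR, with p-values adjusted by Benjamini-Hochberg over 14534 genes, 0 of the 71 were called higher or lower at an adjusted p under 0.05, where 3.01% of all genes tested (437) were called, and the smallest adjusted p was 0.200, that of mrpl-39. At an unadjusted p under 0.05, edgeR found 2 of the 71 (2.82%), where 16.9% of all genes tested passed. One of them was higher in MProPow2 (mrpl-9, 1.41% of the group against 9.13% of all genes) and one was lower (mrpl-39, 1.41% against 7.75%). DESeq2 called 0 at an adjusted p and 3 at an unadjusted p (mrpl-9, mrpl-39 and mrps-31), and limma on log2(FPKM + 1) called 0 and 2 (mrpl-39 and mrps-28).

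The changes of single genes were small. The log2 fold change of MProPow2 over control ran from -0.24 to 0.27, 34 genes had positive and 37 had negative values, and the median was -0.0074, beside -0.013 for all genes tested. The median size of the change regardless of direction was 0.056 on the log2 scale, against 0.15 for all genes tested. The 95% confidence intervals of the fit bound what the data leave possible. Of the 71 intervals, 20 lay wholly within 0.25 of 0 on the log2 scale (1.19-fold), 70 within 0.5 (1.41-fold) and 71 within 1 (2-fold). The lowest bound was that of mrps-28, at -0.49 (0.712-fold), and the highest that of mrps-31, at 0.55 (1.47-fold). An interval reached from 0.18 (mrpl-44) to 0.30 (mrpl-55) on either side of its estimate, with a median of 0.22. A 2-fold change of any of these genes was therefore outside the 95% interval. An estimate smaller than the reach of its interval on either side does not pass even the unadjusted threshold at this depth and replication. The adjusted threshold asks for more, since mrpl-9 (0.24) and mrpl-39 (-0.24) went beyond that reach with adjusted p of 0.265 and 0.200 by edgeR.

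**Figure D2:**
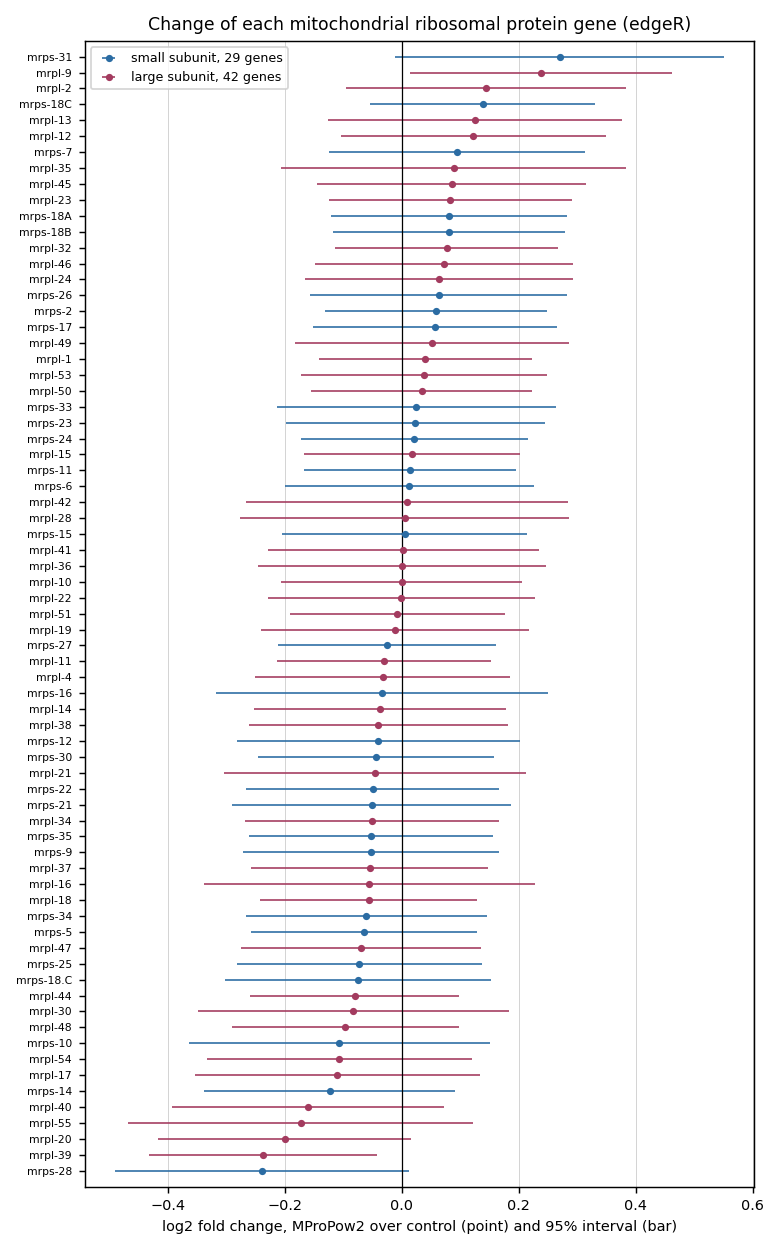
Log2 fold change of MProPow2 over control for each of the 71 genes, by edgeR (points), with 95% confidence intervals (bars), small subunit in blue and large subunit in red. The intervals of 2 genes, mrpl-9 and mrpl-39, do not reach 0, and every interval stays within 1 on either side of 0.

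Among small subunit genes, 14 had positive and 15 negative log2 fold changes, with a median of -0.025, and 0 of the 29 passed the unadjusted threshold. Their summed level was 1530 ± 78.5 CPM in control and 1537 ± 73.7 CPM in MProPow2 (SD, n = 3 each), or 100.5% of control. Among large subunit genes, 20 were positive and 22 negative, with a median of -0.0039, and the sums were 1982 ± 99.7 CPM and 1984 ± 108 CPM, or 100.1% of control. The ratio of the large to the small subunit sum was 1.30, 1.30 and 1.29 in control libraries and 1.28, 1.29 and 1.30 in MProPow2 libraries. The subunits thus kept the same proportion in all 6 libraries, to within a few percent. Subunits were read from the symbols, and in humans the proteins first named MRPS18A and MRPS30 were found in the large subunit.

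Genes were also split by symbol number alone, without a check of sequence, so a gene left outside the bacterial class may still have a bacterial counterpart. By number, 18 small subunit genes were counted as having one (median log2 fold change 0.0090, 10 positive and 8 negative). The other 11 had a median of -0.044, with 4 positive and 7 negative. In the large subunit, the 25 genes counted so had 13 positive and 12 negative values. The other 17 had a median of -0.040, with 7 positive and 10 negative. The 4 genes named for S18, the bacterial small subunit protein with several copies in animal mitochondria, had log2 fold changes of 0.14 (mrps-18C), 0.082 (mrps-18A), 0.080 (mrps-18B) and -0.074 (mrps-18.C).

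Among genes of lower level in MProPow2, mrpl-39 (gene ID 3565110), a large subunit protein with no bacterial counterpart, measured 46.2, 42.6 and 46.9 CPM in control libraries 1, 2 and 3 and 38.1, 38.0 and 39.0 CPM in MProPow2 libraries 1, 2 and 3. All 3 MProPow2 libraries were below all 3 control libraries. The log2 fold change was -0.24 (SE 0.087), with an unadjusted p of 0.0218 and an adjusted p of 0.200 by edgeR. The unadjusted p of mrpl-39 was above 0.05 without control library 1 (0.082), control library 3 (0.080) or MProPow2 library 1 (0.060), at log2 fold changes of -0.23, -0.20 and -0.23. An exon of mrpl-39 overlaps the gene Y32G9B.1 on the opposite strand in the Ensembl annotation. No source used here gives the strand setting of the counting, so how reads from the overlapping stretch were assigned is not known.

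The small subunit gene mrps-28 measured 23.4, 20.4 and 23.2 CPM in control and 18.6, 20.3 and 17.9 CPM in MProPow2. The groups did not overlap, but control library 2 and MProPow2 library 2 were almost level. Its log2 fold change was -0.24 (SE 0.112, unadjusted p 0.0605, adjusted p 0.325 by edgeR). The large subunit gene mrpl-20, whose bacterial homolog L20 is needed early in assembly of the subunit, measured 40.2, 42.1 and 42.3 CPM in control and 37.1, 32.7 and 38.7 CPM in MProPow2. All MProPow2 libraries were again below control, with a log2 fold change of -0.20 (SE 0.097, unadjusted p 0.0663, adjusted p 0.338 by edgeR). Together with mrpl-39, these were the 3 genes of the group (4.23%) whose MProPow2 values all lay below control, where 12.3% of all genes tested showed that pattern.

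Among genes of higher level, mrpl-9 (gene ID 181833), the homolog of bacterial L9 in the large subunit, measured 90.6, 92.1 and 97.6 CPM in control and 102, 102 and 127 CPM in MProPow2. All MProPow2 libraries were above control, and MProPow2 library 3 stood above the other two. Its log2 fold change was 0.24 (SE 0.10, unadjusted p 0.0389, adjusted p 0.265 by edgeR). Without MProPow2 library 3 the log2 fold change of mrpl-9 was 0.12, with an unadjusted p of 0.178 by edgeR, and without control library 1 or 2 it was 0.21 or 0.23, with an unadjusted p of 0.124 or 0.107. It was the 1 gene of the group whose MProPow2 values all lay above control, a pattern that 11.1% of all genes tested showed.

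The largest positive change was that of mrps-31 (gene ID 183104), at 30.2, 30.3 and 27.5 CPM in control and 39.0, 29.1 and 38.0 CPM in MProPow2. MProPow2 library 2 lay within the control range and the other two lay above it. The log2 fold change was 0.27 (SE 0.126, unadjusted p 0.0580, adjusted p 0.321 by edgeR). Without MProPow2 library 2 the log2 fold change of mrps-31 was 0.39, with an adjusted p of 0.088, the smallest adjusted p that any gene of the group had under any alternative.

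The remaining genes of smallest p overlapped between the groups. For mrps-18C the values were 94.7, 87.2 and 90.3 CPM in control and 98.3, 92.5 and 109 CPM in MProPow2 (log2 fold change 0.14, unadjusted p 0.140 by edgeR). For mrpl-40, a large subunit protein with no bacterial counterpart, they were 46.9, 40 and 41.1 CPM in control and 36.1, 36.7 and 41.7 CPM in MProPow2 (-0.16, unadjusted p 0.154 by edgeR). In both genes 1 library bridged the groups, MProPow2 library 2 for mrps-18C and MProPow2 library 3 for mrpl-40. For mrpl-55, the gene with the widest interval, they were 21.5, 20.9 and 23.8 CPM in control and 19.8, 22.4 and 16.5 CPM in MProPow2 (-0.17, unadjusted p 0.221 by edgeR). Single libraries moved these values by over 1.5 times. The log2 fold change of mrps-18C was 0.071 without MProPow2 library 3, that of mrpl-40 was -0.092 without control library 1, and that of mrpl-55 was -0.068 without MProPow2 library 3, -0.11 without control library 3 and -0.28 without MProPow2 library 2.

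The genes with known roles in translation showed no change past either threshold. The lifespan gene mrps-5, the homolog of bacterial S5, measured 83.7, 86.2 and 96.1 CPM in control and 88.5, 79.5 and 86.2 CPM in MProPow2, with a log2 fold change of -0.065 (unadjusted p 0.470 by edgeR). Its groups overlapped, and the interval ran from -0.26 to 0.13. The decoding site protein mrps-12 measured 28.5, 27.8 and 31.7 CPM in control and 26.6, 31.3 and 27.7 CPM in MProPow2, with a log2 fold change of -0.040 (unadjusted p 0.722 by edgeR).

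For mrpl-12, the stalk protein that recruits translation factors in bacteria and is reported to bind the mitochondrial RNA polymerase in humans, the values were 53.1, 49.2 and 53.2 CPM in control and 51.3, 53.9 and 64 CPM in MProPow2. Only MProPow2 library 3 stood clearly above the other five libraries, and the log2 fold change was 0.12 (unadjusted p 0.256 by edgeR), or 0.020 without that library. For mrpl-2 they were 24.6, 22.3 and 25.2 CPM in control and 25.1, 25.9 and 28.7 CPM in MProPow2, with a log2 fold change of 0.14 (unadjusted p 0.207 by edgeR), or 0.084 without MProPow2 library 3 and 0.095 without control library 2. The range of mrpl-2 in MProPow2 began just below the highest control library.

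The level of the 71 genes varied more between libraries of a group than between the groups. Control library 2 held the lowest control value for 53 of the 71 genes (74.6%), where it did so for 30.5% of all genes tested, and control library 3 held the highest for 52 (73.2%, against 36.9% of all genes). In MProPow2, library 2 was lowest for 47 genes (66.2%, against 32.8%) and library 3 was highest for 44 (62.0%, against 37.8%). As the median deviation from each gene's mean over the 6 libraries, the group stood at 0.0061, -0.083 and 0.091 on the log2 scale in control libraries 1, 2 and 3 and at -0.00090, -0.068 and 0.054 in MProPow2 libraries 1, 2 and 3. Each group therefore held a low, a middle and a high library, at about the same 3 levels in both groups. Replicate numbers only name the libraries here.

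Cytosolic ribosomal proteins, the proteins of the ribosome outside the mitochondrion, had median deviations of 0.058, -0.066 and 0.080 in control and -0.080, -0.154 and 0.161 in MProPow2. Their lowest and highest library in each group was the same as for the mitochondrial ribosomal proteins. The nuclear-encoded respiratory chain stood at 0.099, 0.025 and 0.121 in control and -0.093, -0.042 and -0.074 in MProPow2, so that all MProPow2 libraries lay below all control libraries. Oocyte markers stood at 0.231, 0.083 and -0.175 in control and -0.144, -0.268 and 0.278 in MProPow2. In MProPow2 the oocyte markers shared the low and the high library with the mitochondrial ribosomal proteins, and in control they did not. Their part in the spread between libraries was not tested.

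**Figure D3:**
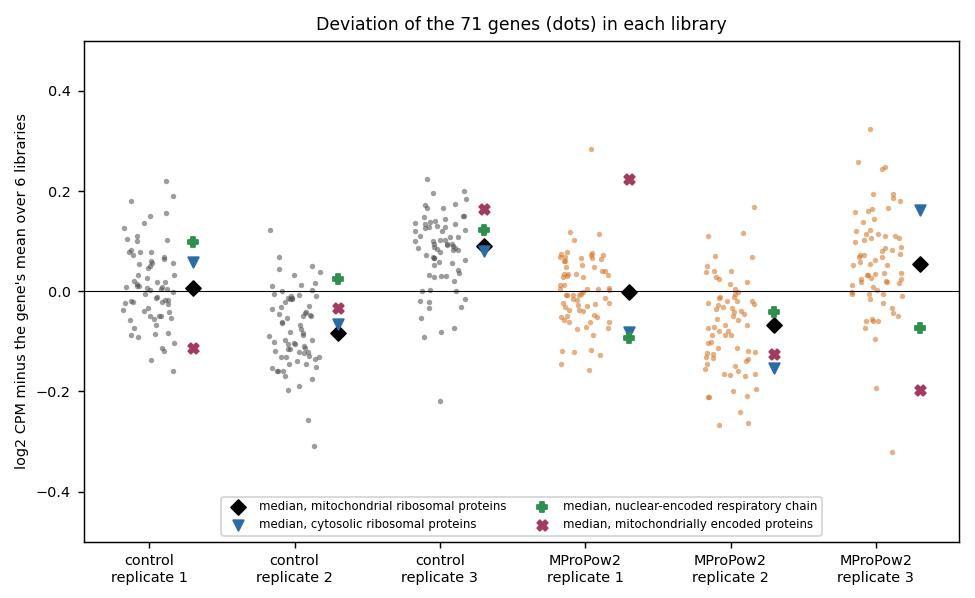
Deviation of each of the 71 genes (dots) from its mean log2 CPM over the 6 libraries, by library (horizontal axis), with the medians of 4 gene groups as larger symbols. The median of the 71 genes (black diamond) is lowest in library 2 and highest in library 3 of each group, and the nuclear-encoded respiratory chain (green cross) is above 0 in all control and below 0 in all MProPow2 libraries.

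The respiratory chain subunits encoded in the nucleus, which assemble with the products of the mitochondrial ribosome, had negative log2 fold changes in 46 and positive ones in 3 of the 49 genes tested, with a median of -0.148. By edgeR, 0 of them were called at an adjusted p under 0.05, and at an unadjusted p under 0.05 there were 13 lower (26.5%, against 7.75% of all genes) and 0 higher. Their summed level was 9994 ± 267 CPM in control and 8915 ± 227 CPM in MProPow2 (SD, n = 3 each), or 89.2% of control. The smallest adjusted p was 0.055, that of the ATP synthase subunit gene atp-4, at 158, 159 and 165 CPM in control and 120.4, 133 and 128 CPM in MProPow2.

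The sum of the respiratory chain genes divided by the sum of the mitochondrial ribosomal proteins was 2.89, 2.91 and 2.75 in control libraries and 2.46, 2.69 and 2.46 in MProPow2 libraries. The groups did not overlap in this ratio, and the MProPow2 mean was 89.0% of control. An exact two-sided permutation test of 3 libraries against 3 cannot go below p = 0.1, so the ratio is given without a test. The ratio uses only levels within a library and so does not depend on how the libraries were scaled. The summed muscle markers (1059 to 1149 CPM in control, 796 to 889 CPM in MProPow2) and intestine markers (1186 to 1214 CPM and 852 to 1132 CPM) were also lower in all MProPow2 libraries, and their part in the ratio was not tested.

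The genes transcribed in the mitochondrion itself did not separate the groups. Of the 12 mitochondrially encoded proteins, 7 were positive and 5 negative, with a median log2 fold change of 0.012, and edgeR called 0 of them at an adjusted p and 0 at an unadjusted p. Their sum was 100.9% of control. The ratio of this sum to that of the mitochondrial ribosomal proteins was 2.92, 3.21 and 3.27 in control and 3.59, 3.21 and 2.69 in MProPow2. The MProPow2 libraries held both the highest and the lowest ratio. The 2 mitochondrial ribosomal RNAs had log2 fold changes of -0.053 and -0.048, each with an SE of about 0.2, and poly-A selection limits what their counts say of their level.

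Among the other genes of mitochondrial translation that were found by symbol and tested, none was called at an adjusted p under 0.05. Of 12 translation factors listed, 7 were found and tested. Of these, 1 was positive and 6 were negative, with a median log2 fold change of -0.056, and 0 passed the unadjusted or the adjusted threshold of edgeR. The elongation factor gene tufm-1 had a mean of 203 ± 5.36 CPM in control and 185 ± 12.1 CPM in MProPow2 (SD, n = 3 each). Of 14 mitochondrial tRNA synthetases listed, 12 were found and tested, 3 of them positive and 9 negative, with a median of -0.067. The asparaginyl-tRNA synthetase gene nars-2 was the 1 that passed the unadjusted threshold (8.33% of the list, against 16.9% of all genes tested). It measured 37.8, 31.9 and 34 CPM in control and 25.9, 26.2 and 28.2 CPM in MProPow2 (log2 fold change -0.37, adjusted p 0.10 by edgeR). The groups of nars-2 did not overlap. In 4 of the 12 synthetases all MProPow2 values lay below control, and in 0 above, where 12.3% of all genes tested lay below.

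Of 4 genes of mitochondrial DNA maintenance and transcription, 3 were positive and 1 negative, with a median of 0.065, and the gene rpom-1 for the mitochondrial RNA polymerase had a log2 fold change of 0.072. For the import machinery, by which the mitochondrial ribosomal proteins reach their place, 22 genes were listed, 14 were found by symbol and 13 were tested. Of the 13, 5 were positive and 8 negative, with a median of -0.031. At an unadjusted p under 0.05, edgeR found the outer membrane receptor gene tomm-22 higher (log2 fold change 0.22, adjusted p 0.263) and the inner membrane channel gene timm-23 lower (-0.22, adjusted p 0.201). These were 15.4% of the import genes tested, close to the 16.9% of all genes tested. The tested genes of the translation, DNA maintenance and import lists held 0 calls at an adjusted p under 0.05 by edgeR.

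In the mitochondrial unfolded protein response, 3 of 9 genes were positive and 6 negative, with a median of -0.055. One gene was called: atfs-1, the transcription factor of the response, was lower in MProPow2, at 88.7, 87.8 and 84.4 CPM in control and 66.8, 61.6 and 69.2 CPM in MProPow2. The groups were well apart, and its log2 fold change was -0.40 (SE 0.079, adjusted p 0.031 by edgeR). The call was lost in limma (adjusted p 0.103 to 0.139) and without control library 1 (0.141), control library 2 (0.136), control library 3 (0.107), MProPow2 library 1 (0.118) or MProPow2 library 2 (0.054). Its log2 fold change in these fits stayed between -0.41 and -0.36. Of the chaperone genes that the response is known to raise, none passed a threshold. The chaperone gene hsp-6 had a log2 fold change of -0.22 (adjusted p 0.323) and the chaperone gene hsp-60 one of 0.055 (adjusted p 0.870), both by edgeR.

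**Figure D4:**
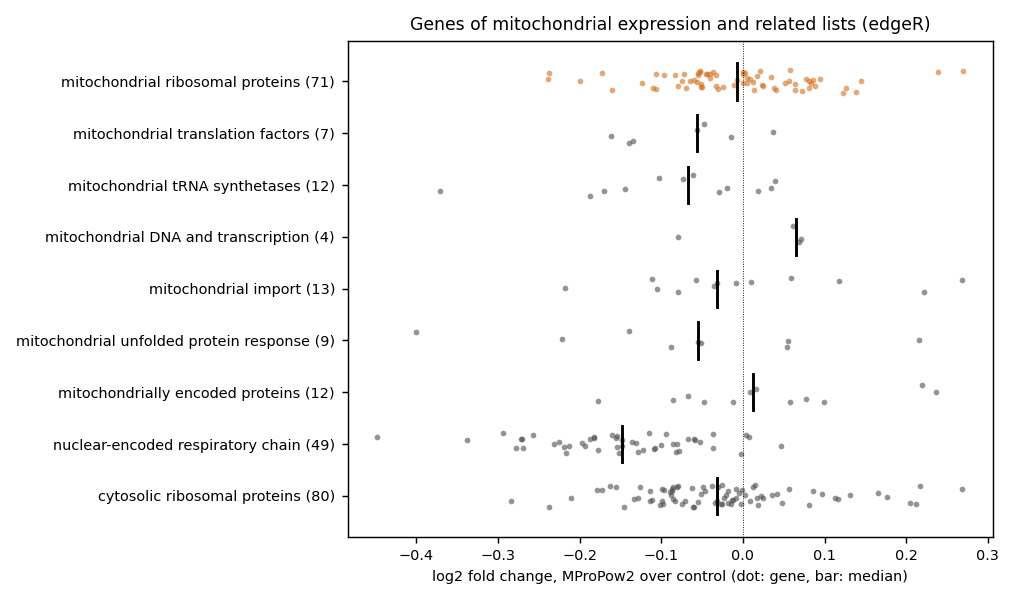
Log2 fold change of MProPow2 over control by edgeR for each gene (dots) of the mitochondrial ribosomal proteins (orange) and of 8 related gene lists (grey), with the number of genes tested in parentheses and the list median as a bar. The median of the mitochondrial ribosomal proteins is -0.0074, and that of the nuclear-encoded respiratory chain is -0.148.

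The cytosolic ribosomal proteins, the nearest group in function, had 24 positive and 56 negative values among 80 tested, with a median log2 fold change of -0.031 and a sum of 98.3% of control. At an unadjusted p under 0.05, edgeR found 1 higher and 2 lower (3.75%), and 0 at an adjusted p. Both kinds of ribosomal protein thus had fewer genes past the unadjusted threshold than the 16.9% of all genes. The difference between them was not tested.

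The symbol rule missed at least 2 genes of the mitochondrial ribosome. The gene dap-3, for a small subunit protein that binds GTP, had 62.6, 54.6 and 63.1 CPM in control and 68.4, 61.4 and 71.6 CPM in MProPow2 (log2 fold change 0.16, unadjusted p 0.125 by edgeR). The gene R02F2.9, listed as mrpl-58 in the RefSeq gene table, had a log2 fold change of -0.068 (unadjusted p 0.477 by edgeR). Both overlapped between the groups and lay within the range of the 71 genes. Of the 71, 21 have an exon that overlaps another gene in the annotation, 7 on the same strand and 14 on the opposite strand, and the median log2 fold change was 0.0053 with and -0.031 without such an overlap.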

How the data were processed

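Paired-end reads were mapped by the authors with HISAT2 2.0.5 and assigned to genes with FeatureCounts. The authors deposited raw counts. The deposited FPKM values equal these counts up to 1 factor for each gene and 1 for each library, as scaling for length and depth would give (how it was computed is not stated), and were used only to compare levels between genes and in limma. No source used here gives the genome build or the strand setting. Samples were grouped by their titles, and 0 columns were left without a sample. Counts were tested with edgeR 4.0.16 (R 4.3.3): filterByExpr with a minimum count of 10, TMM scaling, the two-sided quasi-likelihood F test without covariates, and Benjamini-Hochberg adjustment over 14534 genes at a threshold of 0.05. Per-library CPM values use TMM-scaled library sizes, and log2 deviations a prior count of 2. With 3 libraries a group, a p-value sets the difference between the groups against the spread between these libraries. In edgeR the estimate of that spread for a gene also draws on the other genes tested.

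Named genes were the 5 of smallest p in each direction, the 5 of highest and of lowest mean FPKM, those whose groups did not overlap, and mrps-5, mrps-12, mrpl-12 and mrpl-2 for their roles. Genes of the related lists were picked for naming with their values in view. The members and lists were chosen with earlier results of these data known. Coding lengths and overlaps came from an Ensembl annotation of WBcel235 and were used without coordinates.

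Alternatives were RLE and upper-quartile scaling, a fit with no filter, a minimum of 10 counts in each library, DESeq2 1.42.0, a replicate block, leaving out each library, and limma 3.58.1 on log2(FPKM + 1) or log2(FPKM + 0.1), with a mean FPKM of at least 0.1 or no filter. The edgeR, DESeq2 and limma fits were tested on simulated data.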

Additional observations from a re-analysis of the deposited data

How the results depend on the processing

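Under all 15 alternatives, 0 of the 71 genes were called at an adjusted p under 0.05. At an unadjusted p under 0.05, the count higher and lower was 3 and 0 with upper-quartile scaling, 2 and 1 with no filter and with DESeq2, and 0 and 2 in each limma fit, against 1 and 1 in edgeR. The genes differed between these fits. They were mrpl-9, mrps-18C and mrps-31 with upper-quartile scaling, mrpl-9, mrpl-39 and mrps-31 with no filter and with DESeq2, and mrpl-39 and mrps-28 in each limma fit. Leaving out 1 library gave 0 to 2 higher and 0 to 3 lower. The group median ran from -0.050 (without control library 2) to 0.044 (without control library 3) when a library was left out. Upper-quartile scaling moved the group median to 0.057 and that of all genes to 0.053, with 55 of the 71 positive, and all genes at an unadjusted p then split into 1714 higher and 670 lower, against 1327 and 1127. Values near 0 changed sign. That of mrpl-51 became 0.0034 with RLE and with DESeq2, 0.0029 with at least 10 counts in every library and 0.057 with upper-quartile scaling, under which mrpl-37 became 0.011, mrpl-11 0.035 and mrps-12 0.027. Without single libraries, mrpl-51 ran from -0.069 to 0.029, mrps-12 from -0.11 to 0.030, mrpl-11 from -0.061 to 0.019, mrps-11 from -0.040 to 0.073 and mrps-5 from -0.11 to 0.0070. The cause was not tested.

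With the replicate block, 0 genes were called at an adjusted p, 1 was higher and 1 lower at an unadjusted p, and the group median was -0.0091. Libraries of the same number did not deviate together (correlations of -0.048, 0.096 and -0.116), so the numbers were not taken to pair them. The call of atfs-1 was lost with the block (adjusted p 0.082 by edgeR). Over all genes tested, calls at an adjusted p numbered 223 higher and 214 lower in edgeR, 90 and 102 with the block, 386 and 356 with DESeq2, 684 and 542 with no filter, 229 and 131 with upper-quartile scaling, 12 to 66 and 33 to 82 in the limma fits, and from 17 to 627 higher and 55 to 417 lower when a library was left out. A median interval of 0.22 on either side of a log2 fold change limits what 3 libraries a group can detect.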
